A study of Homo sapiens with 6 samples.

Results

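The genes described here are 9 of the 61498 genes in the deposited tables: the metallothioneins MT2A, MT1X, MT1G, MT1F, MT1E, MT1A and MT1M, the regulator MTF1 and the exporter SLC30A1. They were named as a set after their read counts and TPM in these same libraries had been seen, so that their levels are given as a description, without a test. Metallothioneins are small cysteine-rich proteins that bind zinc, copper and cadmium and act as the cell's buffer for these metals. Their genes are switched on by MTF1, a zinc finger transcription factor that senses free zinc and binds short DNA motifs called metal response elements. MTF1 also induces SLC30A1 (ZnT1), the transporter that carries zinc out of the cell across the plasma membrane, so that metallothionein mRNA and SLC30A1 mRNA are commonly read as signs of how much zinc a cell senses.

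RNA-seq of total RNA depleted of ribosomal RNA was done on 3 human cell lines with 2 libraries each, and none of the cells had been treated. RPMI-8226-R is a derivative of RPMI-8226 that resists bortezomib, an inhibitor of the proteasome; RPMI-8226 is a line established from multiple myeloma, a cancer of plasma cells; NCI-BL2171 is given in the labels as a B lymphocyte line. How RPMI-8226-R was selected, and whether it is a single clone, is not given in the sources used here. The libraries held 25695927 and 26860081 estimated reads for RPMI-8226-R, 29052199 and 27947579 for RPMI-8226, and 26790603 and 23952370 for NCI-BL2171. No label states whether the 2 libraries of a line are separate cultures, and the p-values below therefore reflect library-to-library spread, which may be technical only. Summed over 6 plasma cell markers, the level was 3595 to 3681 TPM in RPMI-8226-R, 1683 to 1787 TPM in RPMI-8226 and 47.9 to 50.5 TPM in the NCI-BL2171 libraries, where 3 of the 6 markers (JCHAIN, TNFRSF17 and IRF4) had no read. Most of the sum in the RPMI-8226 lines was JCHAIN, at 3177 ± 42.9 TPM in RPMI-8226-R and 1439 ± 79.2 TPM in RPMI-8226 (SD, n = 2 each). Of these markers only PRDM1 was lower in RPMI-8226-R than in RPMI-8226. The B cell marker MS4A1 had no read in RPMI-8226-R, and neither MS4A1 nor PAX5 had one in the NCI-BL2171 libraries. The sum over 6 B cell markers was 134 to 140 TPM in RPMI-8226-R, 5445 to 5605 TPM in RPMI-8226 and 2.71 to 4.41 TPM in the NCI-BL2171 libraries. In both RPMI-8226 lines nearly all of it was CD74, at 137 ± 4.36 TPM in RPMI-8226-R and 5520.1 ± 113 TPM in RPMI-8226 (SD, n = 2 each), and 1 of the 6 markers stood at 1 TPM or more in RPMI-8226-R and 2 in RPMI-8226. Summed over 6 erythroid markers, RPMI-8226-R held 91.1 to 103 TPM and RPMI-8226 23.3 to 26.6 TPM, against 17317 to 17885 TPM in the NCI-BL2171 libraries, where each of the 6 stood at 1 TPM or more. In both RPMI-8226 lines nearly all of this sum was HBA1, at 97.0 ± 8.39 TPM in RPMI-8226-R and 24.1 ± 3.11 TPM in RPMI-8226 (SD, n = 2 each). Of the 6 erythroid markers, 4 had no read in RPMI-8226-R and 3 had none in RPMI-8226. The marker values of the NCI-BL2171 libraries go against the B lymphocyte label, and the group is therefore called the libraries labelled NCI-BL2171.

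The 7 metallothionein genes lie within 76.0 kb on chromosome 16, between positions 56608199 and 56684196 (GRCh38, GENCODE 29). MT2A (ENSG00000125148.7) occupies chr16:56608199-56609497, MT1E (ENSG00000169715.15) chr16:56625475-56627112, MT1M (ENSG00000205364.4) chr16:56632233-56633986, MT1A (ENSG00000205362.11) chr16:56638666-56640087, MT1F (ENSG00000198417.7) chr16:56657694-56660698 and MT1X (ENSG00000187193.9) chr16:56682424-56684196, all on the plus strand. MT1G (ENSG00000125144.14), at chr16:56666731-56668065, is on the minus strand. MTF1 (ENSG00000188786.10, chr1:37809567-37859620) and SLC30A1 (ENSG00000170385.10, chr1:211571568-211578742) are both on the minus strand of chromosome 1. MT1X and MTF1 each overlap 1 other annotated gene, and neither of those had a read in any library.

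The coding parts of the 7 metallothionein genes are near copies of one another, which bears on how reads were assigned to them. Each has 3 exons and 183 coding bases without the stop codon, that is 61 codons, of which 20 (32.8%) are the cysteine codons TGC or TGT. Over the 21 pairs, identity of the coding bases ran from 88.5% (MT1F with MT1X) to 95.1% (MT1G with MT2A), with a median of 91.8%. The coding sequences of the 3 of them with the most reads in RPMI-8226 are shown from GENCODE 29 transcripts on GRCh38, 5′ to 3′, with the cysteine codons in capitals:
MT2A: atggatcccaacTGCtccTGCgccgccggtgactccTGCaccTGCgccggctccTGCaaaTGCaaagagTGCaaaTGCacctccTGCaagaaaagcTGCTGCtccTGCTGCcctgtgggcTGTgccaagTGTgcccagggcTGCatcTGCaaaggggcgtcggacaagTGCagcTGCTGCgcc
MT1X: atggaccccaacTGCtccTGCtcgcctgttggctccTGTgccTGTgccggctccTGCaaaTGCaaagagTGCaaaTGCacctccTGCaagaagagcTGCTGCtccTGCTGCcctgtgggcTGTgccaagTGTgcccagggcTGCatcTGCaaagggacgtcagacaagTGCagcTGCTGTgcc
MT1G: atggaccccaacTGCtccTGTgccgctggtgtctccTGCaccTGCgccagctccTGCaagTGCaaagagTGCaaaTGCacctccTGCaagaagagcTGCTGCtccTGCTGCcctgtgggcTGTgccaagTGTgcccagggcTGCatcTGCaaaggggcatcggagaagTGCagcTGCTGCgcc
The cysteine codons stand at the same places in the 3 genes. The quantifier used by the authors is not given in the sources used here, so that reads of a metallothionein could have been placed on another of these copies or on a pseudogene, and the sum over the 7 genes is given beside each single one. The deposited counts of the 7 genes were whole numbers in every library, which shows no read divided between genes. It does not show on which copy a shared read was placed.

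The promoter table of RefSeq (GRCh38.p14) held an entry for 4 of the 9 genes, namely MT2A, MT1X, SLC30A1 and MTF1. The core of the metal response element was searched on both strands as TGCACNC or TGCGCNC in the 250 bases before each RefSeq start, and no matches overlapped in the entries shown. MT2A had 7 matches, MT1X 4, SLC30A1 1 and MTF1 0; of 35116 promoters of the same length in the table, 24.8% held at least 1 match, 0.370% at least 4 and 0.0313% at least 7. The windows of the 3 genes with a match are printed 5′ to 3′ on the gene's strand, with the matches in capitals. They are chr16:56608334-56608583 (plus strand) for MT2A, chr16:56682220-56682469 (plus strand) for MT1X and chr1:211579162-211579411 (minus strand) for SLC30A1:
MT2A: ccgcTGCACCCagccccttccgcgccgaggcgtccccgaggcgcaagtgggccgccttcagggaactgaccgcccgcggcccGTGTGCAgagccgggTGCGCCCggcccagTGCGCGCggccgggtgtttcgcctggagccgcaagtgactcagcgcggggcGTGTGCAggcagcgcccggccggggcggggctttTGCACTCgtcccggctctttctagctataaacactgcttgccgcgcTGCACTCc
MT1X: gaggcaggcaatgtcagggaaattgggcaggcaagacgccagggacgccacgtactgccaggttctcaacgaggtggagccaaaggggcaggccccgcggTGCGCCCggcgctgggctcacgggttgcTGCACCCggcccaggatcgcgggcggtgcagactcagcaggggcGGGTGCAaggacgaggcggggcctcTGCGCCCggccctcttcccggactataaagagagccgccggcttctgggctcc
SLC30A1: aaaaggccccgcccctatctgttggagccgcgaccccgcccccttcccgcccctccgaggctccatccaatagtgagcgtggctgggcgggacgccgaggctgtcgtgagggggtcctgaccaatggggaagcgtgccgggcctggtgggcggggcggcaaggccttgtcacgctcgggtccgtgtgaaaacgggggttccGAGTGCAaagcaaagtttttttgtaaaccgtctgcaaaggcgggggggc
In MT2A the match nearest the start begins at position -8 and the farthest at -246, counted back from the start, and those of MT1X lie between -150 and -53. The GENCODE 29 record of MT2A begins upstream of its RefSeq start, so that its window lies inside that record, and the window of MT1X overlaps its record in part. The record of SLC30A1 begins downstream of its RefSeq start, at position 211578742, so that its window lies wholly upstream of the record and does not adjoin it. A match is a run of letters in a window and not a measured binding site.

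The first comparison sets the bortezomib-resistant line, RPMI-8226-R, against the parental line RPMI-8226. Metallothionein mRNA was lowest in RPMI-8226-R, higher in RPMI-8226 and highest in the libraries labelled NCI-BL2171. Summed over the 7 genes there were 90 and 77 reads in the libraries of RPMI-8226-R, 1445 and 1654 in those of RPMI-8226, and 5665 and 4283 in those labelled NCI-BL2171. As TMM-normalised CPM (read counts scaled to library size), the sum was 3.00 ± 0.474 in RPMI-8226-R, 59.6 ± 8.24 in RPMI-8226 and 190.2 ± 25.01 in the libraries labelled NCI-BL2171 (SD, n = 2 each), and no library of one line overlapped with those of another. The sum was thus 19.8-fold lower in RPMI-8226-R than in RPMI-8226, and 12.7-fold lower when summed as TPM, a scale per length. With every other metallothionein gene and pseudogene of the tables added, the CPM sum was 21.4-fold lower. In bulk libraries, fewer cells with the mRNA and less mRNA per cell cannot be told apart.

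All 9 genes were without overlap in CPM between the libraries of RPMI-8226-R and RPMI-8226, the 7 metallothioneins and SLC30A1 lower and MTF1 higher. Across all 20081 genes tested, 80.6% were without overlap in this comparison (35.2% higher and 45.4% lower in RPMI-8226-R), and the genes were chosen on these values, so nothing is read from the count. Only 7 of the 9 passed the filter on low counts, since MT1A and MT1M had too few reads in every library.

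**Figure D1:**
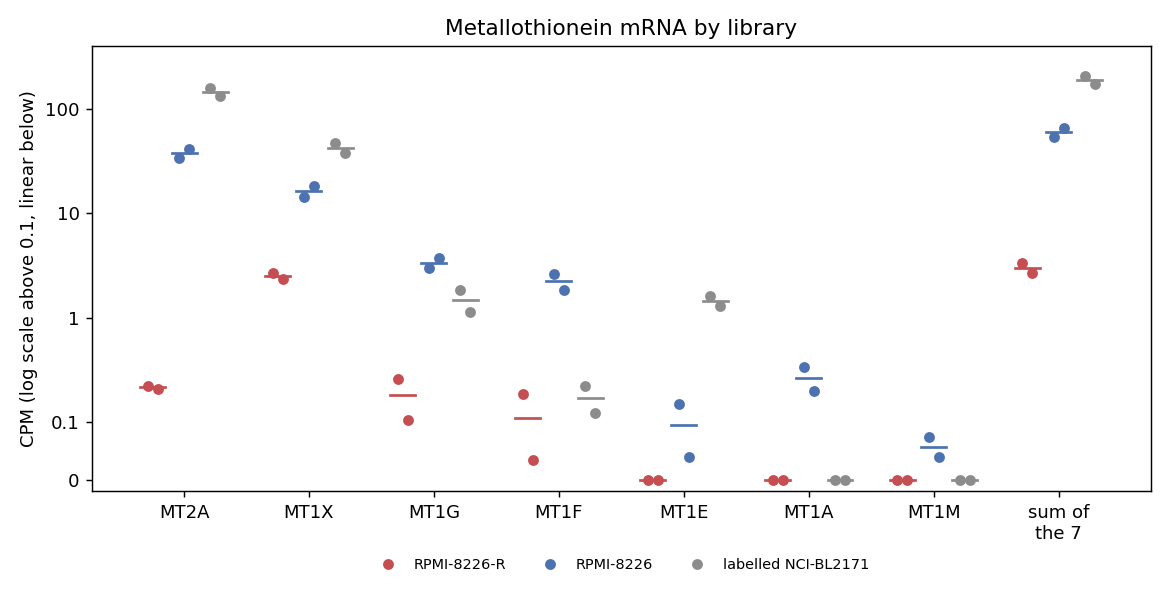
TMM-normalised CPM (vertical axis, linear below 0.1 and logarithmic above it) of the 7 metallothionein genes and of their sum, with 1 point per library and a line at the mean of each line's 2 libraries. The points of RPMI-8226-R lie below those of RPMI-8226 for every gene, and the sum stands at 3.00, 59.6 and 190.2 CPM in RPMI-8226-R, RPMI-8226 and the libraries labelled NCI-BL2171.

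MT2A, the most widely expressed metallothionein of human cells, had the largest fold between these lines of the genes for which one can be given. It had 6 and 6 reads in RPMI-8226-R, 899 and 1045 in RPMI-8226, and 4288 and 3294 in the libraries labelled NCI-BL2171. In TPM these were 0.887 and 0.422 in RPMI-8226-R, 92.9 and 106 in RPMI-8226, and 480 and 408 in the libraries labelled NCI-BL2171. The authors' effective length of MT2A, by which TPM divides, was 257 and 538 bases in the libraries of RPMI-8226-R, so that equal counts gave unequal TPM. The 2 libraries of RPMI-8226-R are both near the floor of detection and far below all others. The mean CPM was 0.215 ± 0.0104 in RPMI-8226-R and 37.4 ± 5.57 in RPMI-8226 (SD, n = 2 each), which is 174-fold lower in RPMI-8226-R, with an edgeR log2 fold change of -7.41 ± 0.22 (SE).

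MT1X, a metal-induced isoform, was the one that RPMI-8226-R still held. It had 72 and 67 reads in RPMI-8226-R, 380 and 462 in RPMI-8226, and 1277 and 926 in the libraries labelled NCI-BL2171. Its mean was 2.496 ± 0.247 CPM in RPMI-8226-R and 16.2 ± 2.92 CPM in RPMI-8226 (SD, n = 2 each), a 6.49-fold lower level in RPMI-8226-R and a log2 fold change of -2.70 ± 0.18 (SE). On the TPM scale, where it stood at 9.35 and 9.42 in RPMI-8226-R against 28.96 and 38.6 in RPMI-8226, the difference was 3.60-fold. The libraries of RPMI-8226-R and RPMI-8226 were apart on both scales, and the fold was smaller than that of MT2A.

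MT1G, another metal-induced isoform, had 7 and 3 reads in RPMI-8226-R, 80 and 94 in RPMI-8226, and 50 and 28 in the libraries labelled NCI-BL2171. Its mean was 0.182 ± 0.110 CPM in RPMI-8226-R and 3.35 ± 0.524 CPM in RPMI-8226 (SD, n = 2 each), 18.4-fold lower in RPMI-8226-R, with a log2 fold change of -4.18 ± 0.47 (SE), and 8.97-fold lower as TPM. MT1F had 5 and 1 reads in RPMI-8226-R, 71 and 46 in RPMI-8226, and 6 and 3 in the libraries labelled NCI-BL2171. Both genes are low in both RPMI-8226-R libraries, but their size of change rests on a handful of reads there. The mean of MT1F was 0.110 ± 0.107 CPM in RPMI-8226-R and 2.23 ± 0.581 CPM in RPMI-8226 (SD, n = 2 each), 20.3-fold lower in RPMI-8226-R, with a log2 fold change of -4.31. MT1F passed the filter on low counts only through RPMI-8226, so nothing is read from its fit beyond this value. Without replicate 1 of RPMI-8226-R the log2 fold change was -5.82 for MT1F and -4.94 for MT1G, and without replicate 2 it was -3.54 for MT1F and -3.65 for MT1G. The authors' effective length of MT1F was 268 and 266 bases in RPMI-8226-R but 698 and 706 bases in RPMI-8226, and as TPM the gene was 6.07-fold lower.

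The remaining 3 metallothioneins were at the limit of detection in both RPMI-8226 lines. MT1E had 0 and 0 reads in RPMI-8226-R, 4 and 1 in RPMI-8226, and 44 and 32 in the libraries labelled NCI-BL2171. MT1A had 0 and 0 reads in RPMI-8226-R, 9 and 5 in RPMI-8226, and 0 and 0 in the libraries labelled NCI-BL2171. MT1M had 0 and 0 reads in RPMI-8226-R, 2 and 1 in RPMI-8226, and 0 and 0 in the libraries labelled NCI-BL2171. Against a floor of 3 reads per library, which covers counting error only, MT1A was at least 2.47-fold lower in RPMI-8226-R than in RPMI-8226, and no fold is given for MT1E and MT1M. A gene without a read may thus be expressed below about 0.108 CPM in RPMI-8226-R.

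The make-up of the pool also differed. Of the summed metallothionein TPM, MT1X made up 74.3% and 88.1% in the libraries of RPMI-8226-R, 21.1% and 24.4% in those of RPMI-8226, and 21.1% and 20.1% in those labelled NCI-BL2171. MT2A made up 7.05% and 3.95% in RPMI-8226-R, 67.8% and 67.1% in RPMI-8226, and 76.2% and 77.7% in the libraries labelled NCI-BL2171. Its shares in RPMI-8226-R rest on 6 reads per library at the unequal effective lengths given above. MT2A was thus the leading isoform in both groups with high levels, and MT1X in RPMI-8226-R, without overlap between RPMI-8226-R and the others. MT1G held 13.1% and 6.67% in RPMI-8226-R, 7.73% and 6.66% in RPMI-8226, and 1.32% and 0.875% in the libraries labelled NCI-BL2171.

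**Figure D2:**
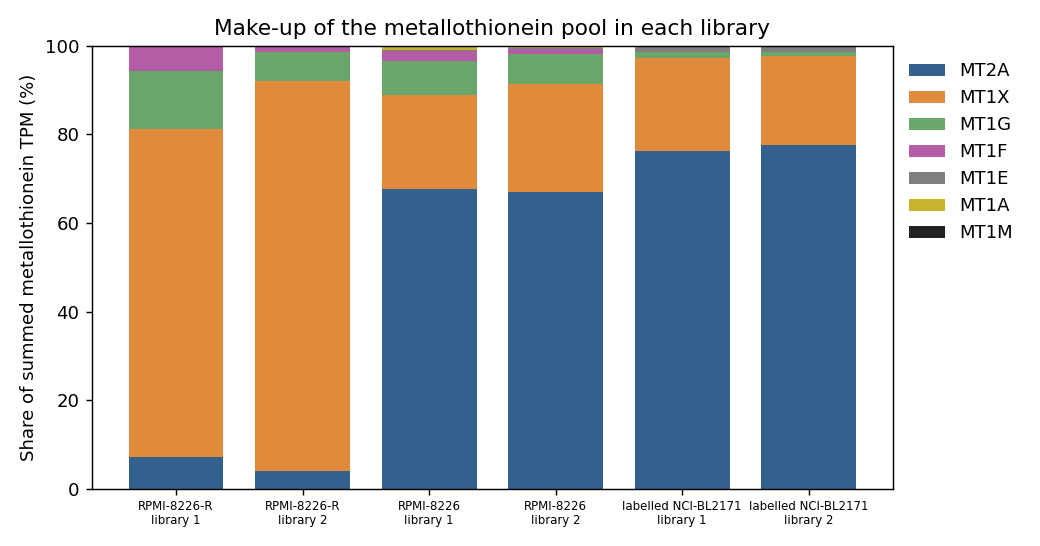
Share of each of the 7 metallothioneins (vertical axis, percent of their summed TPM) in each of the 6 libraries. MT1X fills 74.3% and 88.1% of the bars of RPMI-8226-R, and MT2A fills 67.1% to 77.7% of the bars of RPMI-8226 and of the libraries labelled NCI-BL2171.

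Of 10 other metallothionein genes, 5 had no read in any library, and only MT3, the isoform known from brain, passed the filter on low counts. MT3 had 0 and 0 reads in RPMI-8226-R, 75 and 98 in RPMI-8226, and 0 and 0 in the libraries labelled NCI-BL2171. It was at least 31.0-fold lower in RPMI-8226-R than in RPMI-8226, and since it passed the filter only through RPMI-8226, no test is given. MT1H had 0 and 0 reads in RPMI-8226-R, 8 and 6 in RPMI-8226, and 3 and 8 in the libraries labelled NCI-BL2171, and was at least 2.48-fold lower in RPMI-8226-R than in RPMI-8226. Each of the others had at most 4 reads in any library. Reads were also assigned to pseudogenes: MT2P1 on chromosome 4 had 0 and 1 in RPMI-8226-R, 126 and 105 in RPMI-8226, and 566 and 334 in the libraries labelled NCI-BL2171, and MT1XP1 on chromosome 1 had 5 and 7 in RPMI-8226-R, 66 and 44 in RPMI-8226, and 185 and 140 in the libraries labelled NCI-BL2171. These pseudogene counts have the same order over the lines as MT2A and MT1X.

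MTF1, the regulator, was not lower in RPMI-8226-R. It had 613 and 750 reads in RPMI-8226-R, 476 and 476 in RPMI-8226, and 300 and 345 in the libraries labelled NCI-BL2171. The mean was 24.4 ± 2.29 CPM in RPMI-8226-R, 18.3 ± 0.791 CPM in RPMI-8226 and 12.5 ± 2.04 CPM in the libraries labelled NCI-BL2171 (SD, n = 2 each). The CPM libraries of the 3 lines did not overlap, with RPMI-8226-R 1.33-fold above RPMI-8226, a log2 fold change of 0.42 ± 0.12 (SE). As TPM, MTF1 stood at 5.06 and 8.78 in RPMI-8226-R, 1.93 and 6.14 in RPMI-8226, and 4.90 and 4.41 in the libraries labelled NCI-BL2171. On this scale RPMI-8226-R overlaps with RPMI-8226. The authors' effective length of MTF1, by which TPM divides, was 4592 and 3226 bases in RPMI-8226-R, 7571 and 2427 in RPMI-8226, and 2098 and 3036 in the libraries labelled NCI-BL2171. The order of MTF1 over the lines therefore depends on the scale.

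SLC30A1, the zinc exporter that MTF1 induces, was lower together with the metallothioneins. It had 1082 and 1267 reads in RPMI-8226-R, 2769 and 2774 in RPMI-8226, and 2048 and 1776 in the libraries labelled NCI-BL2171. The mean was 42.02 ± 2.66 CPM in RPMI-8226-R, 106 ± 4.74 CPM in RPMI-8226 and 73.3 ± 2.56 CPM in the libraries labelled NCI-BL2171 (SD, n = 2 each). No libraries of different lines overlapped, and RPMI-8226-R was 2.53-fold below RPMI-8226, a log2 fold change of -1.34 ± 0.08 (SE). As TPM it stood at 7.91 and 9.25 in RPMI-8226-R, 17.0 and 17.4 in RPMI-8226, and 13.9 and 13.3 in the libraries labelled NCI-BL2171. Both scales give the same order of the lines, which is not that of the metallothionein sum.

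**Figure D3:**
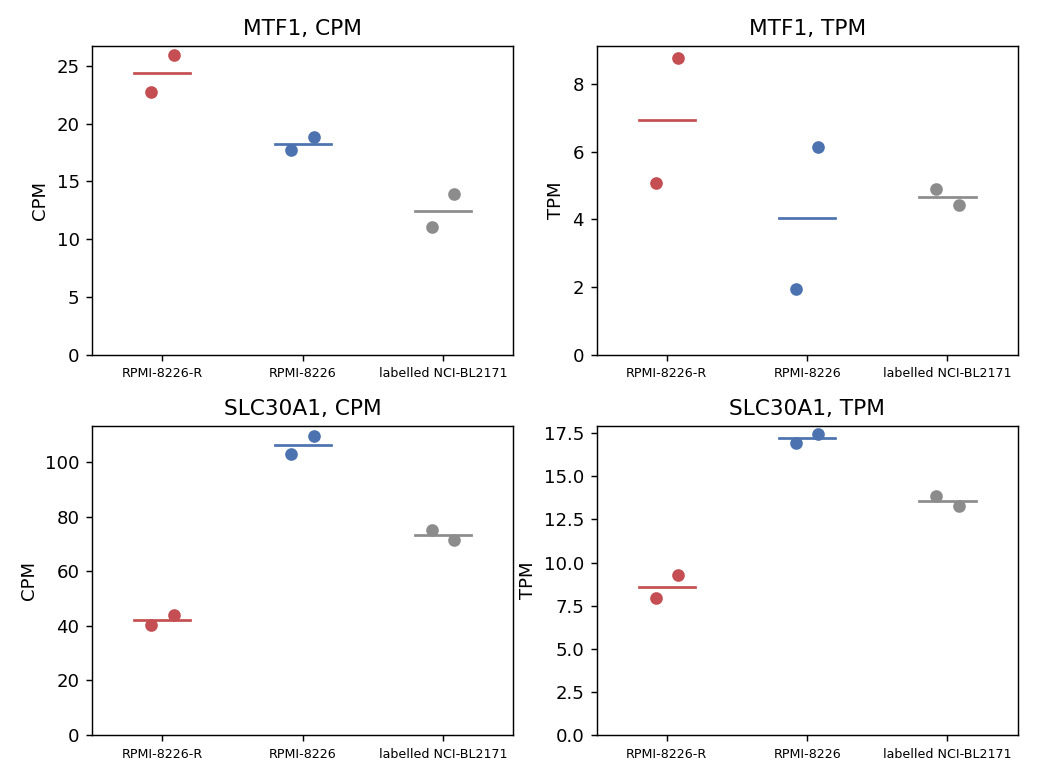
Levels of MTF1 (top) and SLC30A1 (bottom) in each library as CPM (left) and TPM (right), with a line at the mean of each line's 2 libraries. For MTF1 the libraries of RPMI-8226-R and RPMI-8226 are apart as CPM and overlap as TPM, and for SLC30A1 they are apart on both scales, at 42.02 and 106 CPM on average.

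Per length, the order of the levels could be read from mean TPM. In RPMI-8226-R the order was MT1X, SLC30A1, MTF1, MT1G, MT2A and MT1F, with MT1E, MT1A and MT1M at 0, and the libraries overlapped between SLC30A1 and MTF1, between MT1G and MT2A and between MT2A and MT1F. In RPMI-8226 the order was MT2A, MT1X, SLC30A1, MT1G, MTF1, MT1F, MT1A, MT1E and MT1M, with overlap between MTF1 and MT1F and between MT1E and MT1M. In the libraries labelled NCI-BL2171 it was MT2A, MT1X, SLC30A1, MT1E, MT1G, MTF1 and MT1F, with overlap between MT1E and MT1G and between MT1G and MTF1, and MT1A and MT1M at 0.

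RPMI-8226 had less of the abundant isoforms than the libraries labelled NCI-BL2171, with MT2A at 37.4 ± 5.57 CPM in RPMI-8226 and 145 ± 17.4 CPM in the libraries labelled NCI-BL2171, and MT1X at 16.2 ± 2.92 CPM in RPMI-8226 and 42.1 ± 6.76 CPM in those libraries (SD, n = 2 each). The folds were 3.88 lower for MT2A (log2 -1.96 ± 0.10) and 2.60 lower for MT1X (log2 -1.38 ± 0.13, SE), and the sum was 3.19-fold lower in RPMI-8226. The erythroid markers given above are also higher in the libraries labelled NCI-BL2171, and their part in these differences was not tested. MT1E, at 0.0941 ± 0.0772 CPM in RPMI-8226 and 1.45 ± 0.230 CPM in the libraries labelled NCI-BL2171, was 15.4-fold lower in RPMI-8226 as CPM and 39.1-fold lower as TPM, but with 5 reads in the 2 libraries of RPMI-8226 its level there is under the floor of 3 reads per library, and the size of the fold is uncertain. Without replicate 1 of RPMI-8226 its log2 fold change was -5.04, and without replicate 2 it was -3.24, against -3.86 with both.

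Other isoforms had the opposite order. MT1F was 13.1-fold higher in RPMI-8226 as CPM (log2 3.66) and 6.46-fold higher as TPM. Its mean was 2.23 ± 0.581 CPM in RPMI-8226 against 0.171 ± 0.0702 CPM in the libraries labelled NCI-BL2171 (SD, n = 2 each). This fold rests on 6 and 3 reads in the latter, and MT1F passed the filter on low counts only through RPMI-8226. Under the alternatives its log2 fold change ran from 1.34 to 4.15. MT1G was 2.26-fold higher (log2 1.16 ± 0.35, SE), at 3.35 ± 0.524 CPM in RPMI-8226 against 1.48 ± 0.4999 CPM in the libraries labelled NCI-BL2171 (SD, n = 2 each). MT1A was at least 2.31-fold and MT3 at least 28.9-fold higher in RPMI-8226, against no read of either in the libraries labelled NCI-BL2171. SLC30A1 was 1.45-fold higher in RPMI-8226 (log2 0.53 ± 0.07, SE). MTF1 was 1.47-fold higher as CPM (log2 0.55 ± 0.13, SE) but 1.15-fold lower as TPM, where the libraries overlapped. Of the 9 genes, 9 were without overlap as CPM in this comparison and 8 as TPM, against 88.4% of all genes tested as CPM (46.7% higher and 41.6% lower in RPMI-8226).

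RPMI-8226-R lay below the libraries labelled NCI-BL2171 in MT2A, MT1X, MT1G and MT1E. MT2A was 674-fold lower (log2 -9.37 ± 0.20), MT1X 16.9-fold lower (log2 -4.08 ± 0.17), MT1G 8.15-fold lower (log2 -3.02 ± 0.50, SE) and MT1E at least 13.5-fold lower, and the sum was 63.3-fold lower. The log2 fold change of MT1G was -3.78 without replicate 1 of RPMI-8226-R and -2.49 without replicate 2. MT1F, with 6 reads in RPMI-8226-R and 9 in the libraries labelled NCI-BL2171, overlapped between them, and MT1A and MT1M had no read in either. SLC30A1 was 1.75-fold lower in RPMI-8226-R (log2 -0.80 ± 0.08) and MTF1 1.96-fold higher (log2 0.97 ± 0.13, SE), both without overlap. In this comparison 6 of the 9 genes were without overlap, against 87.3% of all genes tested (44.1% higher and 43.2% lower in RPMI-8226-R). The 3 comparisons share libraries and are not independent of one another.

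The zinc transporters were counted from lists of the 2 families, the SLC30 exporters, which move zinc out of the cytosol, and the SLC39 importers, which move it in. The lists were read from the fit over all genes, with no test of a list as a whole. Of 9 exporters other than SLC30A1, 8 were tested between RPMI-8226-R and RPMI-8226: 4 rose in RPMI-8226-R, 3 fell and 1 did not pass, with a median log2 fold change of 0.28 (0.30 with genes lacking reads in a line at their bound, or at 0 where no bound exists). Over all 20081 genes tested in this comparison 65.6% passed (28.5% higher and 37.2% lower), with a median of -0.12. SLC30A6, which works in the Golgi, rose to 36.8 ± 0.764 CPM in RPMI-8226-R, against 11.2 ± 0.815 CPM in RPMI-8226 (SD, n = 2 each; log2 1.71 ± 0.10, edgeR adjusted p = 4.6e-12). SLC30A5 and SLC30A7, exporters that load zinc into the secretory pathway, rose as well, SLC30A7 to 18.8 ± 0.129 CPM in RPMI-8226-R against 7.59 ± 0.0576 CPM in RPMI-8226, and SLC30A5 to 90.4 ± 3.79 CPM in RPMI-8226-R against 50.5 ± 1.69 CPM in RPMI-8226 (edgeR adjusted p = 1.7e-08 for SLC30A7 and 3.9e-09 for SLC30A5).

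Among the exporters that fell, SLC30A3, a transporter of synaptic vesicles, was at 15.3 ± 1.41 CPM in RPMI-8226-R and 23.3 ± 0.835 CPM in RPMI-8226 (SD, n = 2 each; log2 -0.61 ± 0.11, edgeR adjusted p = 5.8e-05). This call was lost with an offset for effective length, at a log2 fold change of -0.22, and on log2(TPM + 1), at 0.09. SLC30A2 had 0 reads in RPMI-8226-R and 30 in RPMI-8226 over the 2 libraries of each, at least 5.37-fold lower. It passed the filter on low counts only through RPMI-8226. SLC30A10 had 0 reads in RPMI-8226-R and 5 in RPMI-8226, all 5 in replicate 1, so that the lines overlapped, and no fold is given. It passed the filter only through the libraries labelled NCI-BL2171. Both genes were named after their values were seen, and no test is given for them, though both are among the exporters counted as fallen.

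Of 14 importers 11 were tested, and 3 rose, 5 fell and 3 did not pass in RPMI-8226-R, where 28.5% of all genes tested were higher and 37.2% lower. Their median log2 fold change of -0.12 equals that of all genes at this precision. SLC39A14 (ZIP14), an importer of zinc, iron and manganese at the plasma membrane, rose most. It had 263 and 278 CPM in RPMI-8226-R against 55.3 and 51.4 CPM in RPMI-8226 (log2 2.34 ± 0.07, edgeR adjusted p = 7.4e-17), and 64.4 and 61.2 CPM in the libraries labelled NCI-BL2171, so that RPMI-8226-R stands above both other groups. SLC39A10 rose to 39.2 ± 2.62 CPM in RPMI-8226-R, against 18.8 ± 0.0245 CPM in RPMI-8226, and SLC39A8 (ZIP8) to 92.2 ± 0.298 CPM in RPMI-8226-R against 50.4 ± 3.27 CPM in RPMI-8226 (SD, n = 2 each; edgeR adjusted p = 2.5e-09 for SLC39A10 and 1.2e-09 for SLC39A8). Both import zinc across the plasma membrane.

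The 3 largest falls among the importers were those of SLC39A13, SLC39A7 and SLC39A1. SLC39A13 (ZIP13), which releases zinc from vesicles and the Golgi, was at 6.49 ± 0.522 CPM in RPMI-8226-R and 17.6 ± 0.564 CPM in RPMI-8226 (log2 -1.44 ± 0.13, edgeR adjusted p = 2.2e-09). SLC39A7 (ZIP7), which releases zinc from the endoplasmic reticulum, was at 133 ± 3.19 CPM in RPMI-8226-R and 199.8 ± 2.85 CPM in RPMI-8226 (SD, n = 2 each; log2 -0.59 ± 0.06, edgeR adjusted p = 2.9e-08). SLC39A1 (ZIP1), of the plasma membrane, fell to 89.5 ± 3.01 CPM in RPMI-8226-R against 121 ± 5.06 CPM in RPMI-8226 (log2 -0.44 ± 0.07, edgeR adjusted p = 6.2e-06), a call that was lost on log2(TPM + 1), at -0.06. Between these lines the median gene differed by 0.38 more on the TPM scale than on the CPM scale (log2), and the share of called genes that were higher in RPMI-8226-R was 43.4% with edgeR (5716 higher, 7461 lower) and 60.7% on log2(TPM + 1) with limma (6928 higher, 4493 lower).

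**Figure D4:**
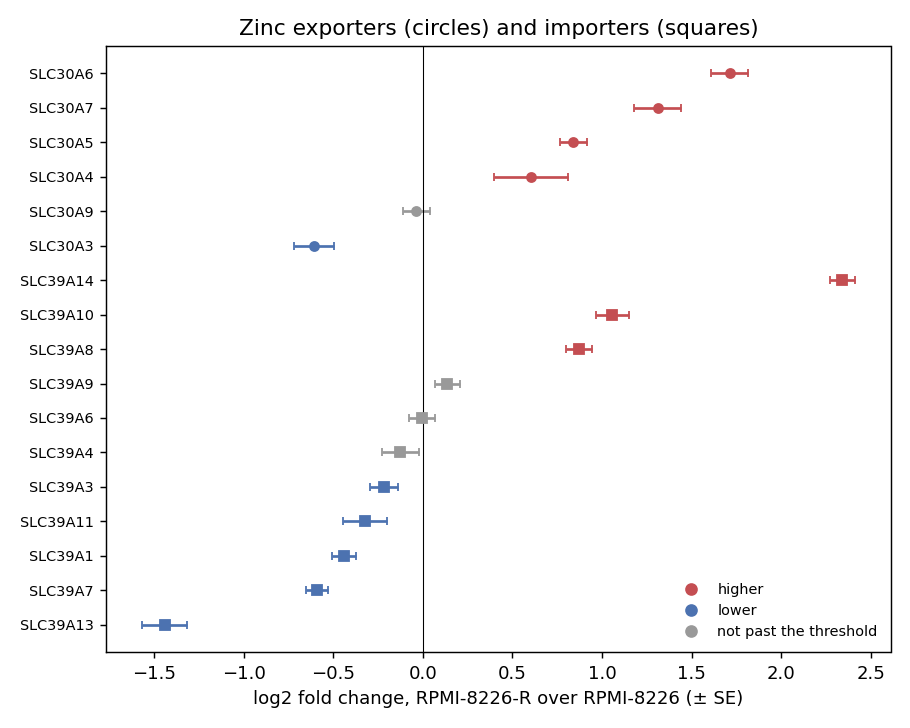
Log2 fold change of RPMI-8226-R over RPMI-8226 with its SE (horizontal axis) for the tested exporters (circles) and importers (squares) of zinc, without SLC30A2 and SLC30A10, which had no read in RPMI-8226-R. SLC39A14 stands farthest to the right at 2.34 and SLC39A13 farthest to the left at -1.44.

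Against the libraries labelled NCI-BL2171 the transporters differed in other ways. In RPMI-8226, 1 of 8 tested exporters was higher and 5 were lower than in those libraries, where 76.7% of all genes passed (41.1% higher, 35.6% lower), and 2 of 11 importers were higher and 7 lower. The median log2 fold change was -0.48 for the exporters and -0.38 for the importers, against 0.09 over all genes tested. SLC30A10, a manganese exporter, was at 0.0930 ± 0.131 CPM in RPMI-8226 and 20.7 ± 1.42 CPM in the libraries labelled NCI-BL2171 (SD, n = 2 each). In RPMI-8226-R, with no read, it was at least 193-fold lower than in those libraries. Since it passed the filter on low counts only through the libraries labelled NCI-BL2171, no test is given, though the counts of lower exporters include it. In RPMI-8226-R, 2 of 8 exporters were higher and 3 lower than in the libraries labelled NCI-BL2171, and 4 of 11 importers higher and 5 lower, where 77.4% of all genes passed (39.2% higher, 38.2% lower). The median there was -0.19 for the exporters, or 0.05 with SLC30A10 at its bound and SLC30A2 at 0, and -0.01 for the importers, against 0.00 over all genes. SLC39A6 (ZIP6), an importer of the plasma membrane, was at 79.0 ± 0.805 CPM in RPMI-8226-R, 79.2 ± 0.719 CPM in RPMI-8226 and 21.8 ± 1.38 CPM in the libraries labelled NCI-BL2171 (SD, n = 2 each; edgeR adjusted p = 5.1e-15 and 5.4e-15 for RPMI-8226-R and RPMI-8226 against those libraries). SLC39A13 was lower in both RPMI-8226 lines than in those libraries, at 26.9 ± 0.619 CPM in them (edgeR adjusted p = 2.0e-12 for RPMI-8226-R and 4.9e-05 for RPMI-8226).

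Copper, which metallothioneins also bind, is carried by a separate set of proteins. All 11 genes of the copper list were tested, and 3 rose, 4 fell and 4 did not pass in RPMI-8226-R against RPMI-8226, with a median log2 fold change of 0.09; over all genes tested 28.5% rose and 37.2% fell, with a median of -0.12. COX17, the chaperone that brings copper to cytochrome oxidase, fell to 14.96 ± 2.19 CPM in RPMI-8226-R, against 43.3 ± 0.981 CPM in RPMI-8226 (SD, n = 2 each; log2 -1.54 ± 0.11, edgeR adjusted p = 1.3e-10). COMMD1, a regulator of copper export, and ATOX1, the chaperone that hands copper to the export pumps, fell, with log2 fold changes of -0.94 and -0.64 (edgeR adjusted p = 1.1e-07 and 8.5e-07). SCO2, an assembly factor of cytochrome oxidase that overlaps TYMP on the same strand, rose to 27.8 ± 0.965 CPM in RPMI-8226-R against 16.1 ± 1.98 CPM in RPMI-8226 (edgeR adjusted p = 5.5e-04). TYMP itself had 1990 and 2117 estimated reads in RPMI-8226-R, 1055 and 1104 in RPMI-8226, and 50.3 and 32.7 in the libraries labelled NCI-BL2171. Whether reads of TYMP were counted for SCO2 was not tested. SCO1 rose by 0.37 ± 0.09 (log2; edgeR adjusted p = 0.0016), a call lost with an offset for effective length. SOD1, the copper and zinc superoxide dismutase, rose by 0.21 ± 0.07 (log2; edgeR adjusted p = 0.015), and this call was lost without replicate 1 of RPMI-8226-R and without replicate 2 of RPMI-8226. ATP7B, a copper export pump, stood at 0.999 ± 0.580 CPM in RPMI-8226-R, 1.64 ± 0.694 CPM in RPMI-8226 and 33.6 ± 0.662 CPM in the libraries labelled NCI-BL2171, and SLC31A1, the copper importer CTR1, at 50.1 ± 0.548 CPM in RPMI-8226-R, 70.4 ± 4.84 CPM in RPMI-8226 and 137 ± 6.62 CPM in those libraries.

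Genes that cadmium, zinc or oxidative stress can also induce were split. Of 10, 6 rose and 4 fell in RPMI-8226-R against RPMI-8226, with a median log2 fold change of 0.45. Of all genes tested 65.6% passed (28.5% higher and 37.2% lower), with a median of -0.12. The 4 that fell were chaperones of the heat shock response. HSPA6, a heat shock protein that is strongly induced by stress and is silent in most resting cells, had 0.297 and 0.277 CPM in RPMI-8226-R, 159 and 190.4 CPM in RPMI-8226, and 2.61 and 2.82 CPM in the libraries labelled NCI-BL2171. It was the gene of these lists with the largest fall measured by reads on both sides (log2 -9.23 ± 0.16, edgeR adjusted p = 1.3e-20). HSPA1A and HSPA1B, whose sequences are near copies so that reads can be split between them, had log2 fold changes of -3.46 and -3.43 (edgeR adjusted p = 1.9e-19 and 2.7e-19). The 6 that rose serve glutathione and thioredoxin metabolism or haem breakdown: SLC7A11, the cystine importer, to 28.0 ± 2.12 CPM in RPMI-8226-R against 7.93 ± 0.0359 CPM in RPMI-8226, GCLM, a subunit of the first enzyme of glutathione synthesis, to 52.1 ± 2.67 CPM in RPMI-8226-R against 18.6 ± 1.74 CPM in RPMI-8226, and SRXN1, sulfiredoxin, to 60.7 ± 0.804 CPM in RPMI-8226-R against 24.1 ± 0.256 CPM in RPMI-8226 (SD, n = 2 each; edgeR adjusted p = 9.4e-12, 4.9e-12 and 3.2e-11). HMOX1, haem oxygenase, which cadmium induces along with metallothioneins, was at 139 ± 5.89 CPM in RPMI-8226-R, 104.7 ± 5.94 CPM in RPMI-8226 and 0.750 ± 0.0222 CPM in the libraries labelled NCI-BL2171. The list and its split between heat shock and redox genes were known from earlier results of these libraries and are no independent observation.

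Glucocorticoids are the other classic inducers of MT2A, and 7 genes of their response, the receptor included, were listed. The list was drawn up with earlier results of these libraries known and is no independent observation. Whether glucocorticoids have a part in the level of MT2A was not tested. In RPMI-8226-R against RPMI-8226 2 rose and 5 fell, with a median log2 fold change of -2.36 (-2.04 with ZBTB16, which had no read in RPMI-8226-R, at its bound), beside 28.5% higher, 37.2% lower and a median of -0.12 over all genes tested. DUSP1, a phosphatase that switches off MAP kinases, fell to 7.55 ± 1.13 CPM in RPMI-8226-R against 151 ± 16.01 CPM in RPMI-8226, TSC22D3 (GILZ) to 21.3 ± 2.29 CPM in RPMI-8226-R against 139 ± 6.99 CPM in RPMI-8226, and PER1, a clock gene, to 13.6 ± 1.34 CPM in RPMI-8226-R against 69.9 ± 3.95 CPM in RPMI-8226 (SD, n = 2 each; edgeR adjusted p = 5.0e-18, 1.7e-16 and 2.1e-14). NR3C1, the glucocorticoid receptor, was at 56.7 ± 3.11 CPM in RPMI-8226-R, 114 ± 2.75 CPM in RPMI-8226 and 30.2 ± 0.872 CPM in the libraries labelled NCI-BL2171 (log2 -1.01 for RPMI-8226-R over RPMI-8226). It was named after its value was seen, and no test is given for it, though it is among the genes counted as fallen. FKBP5, a co-chaperone of the receptor and itself a target, went the other way, at 194 ± 3.34 CPM in RPMI-8226-R and 75.9 ± 0.698 CPM in RPMI-8226 (edgeR adjusted p = 4.2e-13), and KLF9 rose by 0.45 ± 0.10 on the log2 scale (edgeR adjusted p = 6.7e-04).

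Genes on either side of the cluster on chromosome 16 did not all follow the metallothioneins. Of 10 listed neighbours 7 were tested, and 3 rose and 4 fell in RPMI-8226-R against RPMI-8226, with a median log2 fold change of -0.66, where 65.6% of all genes tested passed (28.5% higher and 37.2% lower) at a median of -0.12. BBS2, at -141 kb from MT2A and part of a complex of the primary cilium, fell to 19.7 ± 1.20 CPM in RPMI-8226-R against 45.7 ± 0.975 CPM in RPMI-8226 (edgeR adjusted p = 3.1e-10), whereas OGFOD1, at -157 kb, rose to 81.9 ± 3.86 CPM in RPMI-8226-R against 32.6 ± 1.49 CPM in RPMI-8226 (SD, n = 2 each; edgeR adjusted p = 4.1e-12). OGFOD1 overlaps both BBS2 and NUDT21 on the other strand, and whether the counting used strand is not given in the sources used here. On the upper side, NUP93, a nuclear pore protein 122 kb from MT2A, rose by only 0.17 ± 0.07 (log2; edgeR adjusted p = 0.039), a call lost with an effective-length offset and when replicate 1 or 2 of RPMI-8226 or replicate 2 of RPMI-8226-R was left out. HERPUD1, a stress gene of the endoplasmic reticulum 324 kb from MT2A, fell to 190.2 ± 6.04 CPM in RPMI-8226-R against 721 ± 9.32 CPM in RPMI-8226 (edgeR adjusted p = 2.8e-16). CES1, a carboxylesterase at -805 kb, was at 0.164 ± 0.135 CPM in RPMI-8226-R and 3.03 ± 0.0227 CPM in RPMI-8226, from 9 and 158 reads over the 2 libraries of each. CES1 passed the filter on low counts only through RPMI-8226, so no test is given, though it is among the neighbours counted as fallen. NUDT21 rose by 0.52 ± 0.06 (log2; edgeR adjusted p = 1.6e-07), lost with an offset for effective length at 0.02.

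**Figure D5:**
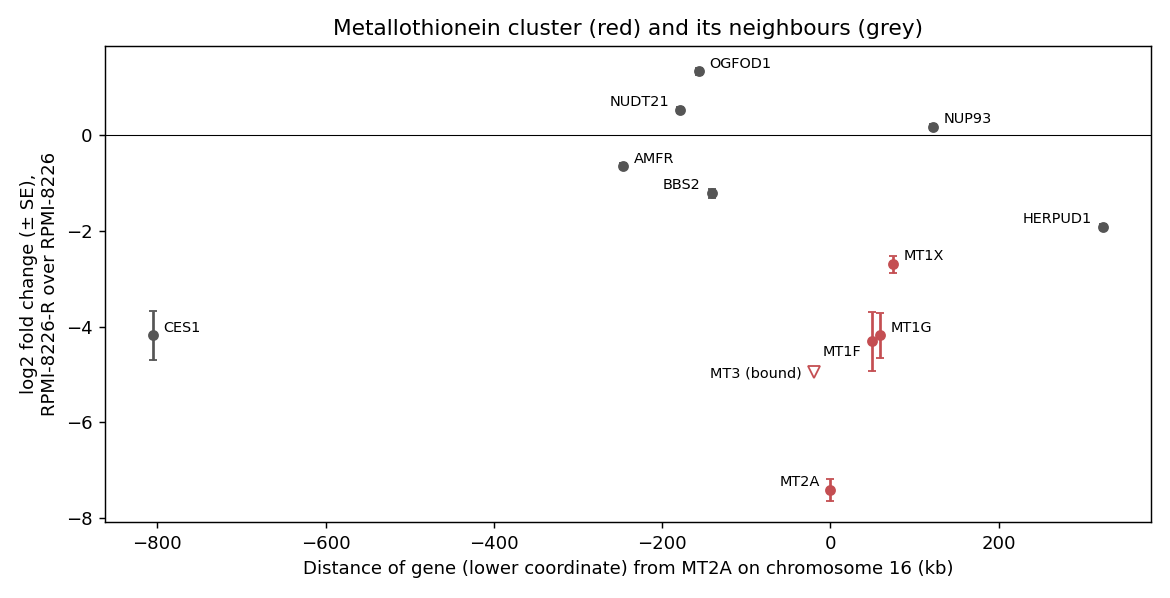
Log2 fold change of RPMI-8226-R over RPMI-8226 with its SE (vertical axis) against distance from MT2A on chromosome 16 (horizontal axis, kb, by each gene's lower coordinate) for metallothioneins with reads in both lines (red) and neighbours (grey); the open triangle is the bound for MT3. The red points lie between -7.41 and -2.70, and the nearest neighbours on the 2 sides, BBS2 at -1.21 and NUP93 at 0.17, lie above them. MT1F and the neighbour CES1 passed the filter on low counts only through RPMI-8226.

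In RPMI-8226 against the libraries labelled NCI-BL2171, the remaining lists were split as well, beside 41.1% of all genes tested higher and 35.6% lower, with a median of 0.09. Of the copper genes 4 were higher and 4 lower in RPMI-8226 (median log2 fold change 0.09), of the metal stress genes 7 and 3 (1.13), of the glucocorticoid genes 4 and 3 (0.87) and of the chromosome 16 neighbours 4 and 3 (0.21). In RPMI-8226-R against the same libraries, where 39.2% of all genes were higher and 38.2% lower with a median of 0.00, the copper genes were 5 higher and 4 lower (-0.02), the metal stress genes 4 and 6 (-0.50), the glucocorticoid genes 2 and 5 (-1.01) and the neighbours 3 and 2 (0.00). The neighbour HERPUD1 was higher in RPMI-8226 than in those libraries (log2 2.13 ± 0.06, edgeR adjusted p = 1.0e-17).

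The genes whose pattern over the 6 libraries was most like that of each member were taken from 12245 genes with a mean of at least 5 CPM, by the root mean square difference of centred log2(CPM + 0.5). For the metallothionein sum these were the histone genes H2AC19 (difference 0.20 in log2 units) and H2AC18 (0.23), which are near copies and can share reads, the integrin activator FERMT3 (0.22), the membrane-binding annexin ANXA6 (0.26) and the autophagy gene GABARAPL1 (0.28). FERMT3, for example, was at 0.536 ± 0.0755 CPM in RPMI-8226-R, 22.1 ± 0.766 CPM in RPMI-8226 and 54.2 ± 6.24 CPM in the libraries labelled NCI-BL2171 (SD, n = 2 each). For MTF1 they included ZNF681 (0.04), FBXW2 (0.06), BRMS1L (0.06) and ZNF791 (0.06). For SLC30A1 they included HDAC7 (0.05), ZFAND2A (0.05), TFG (0.06) and the pseudogene CDC20P1 (0.06). ZFAND2A, which arsenite induces, was at 6.29 ± 0.0759 CPM in RPMI-8226-R, 16.7 ± 0.561 CPM in RPMI-8226 and 10.96 ± 0.745 CPM in the libraries labelled NCI-BL2171. With 3 lines, such likeness describes little more than the order and spacing of 3 levels.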

How the data were processed

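For every library the authors deposited a table of genes with lengths, effective lengths, TPM and estimated read counts, per the file headers. The deposited estimated counts need not be whole and were rounded for testing; the deposited TPM values were used as they stand. Lengths are another deposited unit, in bases, and served as an offset. Per the submitters' processing notes the genome build was GRCh38.p13; the quantifier, annotation and use of strand are not stated in the labels or headers. Each table held 61544 genes, of which 46 pseudoautosomal Y copies were added to their X copies, leaving 61498. Gene positions and coding sequences came from GENCODE 29 and promoters from RefSeq.

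The count test was edgeR 4.0.16 (R 4.3.3) over all 6 libraries in 1 fit (TMM scaling, filterByExpr by line with a minimum count of 10 and total of 15, robust quasi-likelihood F test, two-sided, Benjamini-Hochberg adjustment over 20081 genes at 0.05). Levels are TMM-normalised CPM or TPM; a gene without reads in a line was set against a floor of 3 reads per library, which covers counting error only. The libraries of a line differed by more than sampling noise (chi-square per gene of 11.0 for RPMI-8226-R, 3.47 for RPMI-8226 and 5.48 for the libraries labelled NCI-BL2171), so none was a copy of another.

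The 9 genes and all lists were chosen with earlier results of these data known. The named genes are the 9 members; of each list the 3 largest rises and falls past the threshold between RPMI-8226-R and RPMI-8226 and, for the other comparisons, some of the 2 largest each way, with a mean of at least 1 CPM in the higher line; and the 5 genes most like the metallothionein sum, MTF1 and SLC30A1, of which some are not reported here. Those given outside the rule are said to be named after their values were seen, or are quoted for their levels only. The alternatives were DESeq2 1.42.0, DESeq2 size factors in edgeR, no filter, an effective-length offset, limma 3.58.1 on log2(TPM + 1) and log2(TPM + 0.1), the replicate number as a block, each library left out in turn, summed TPM, and, chosen after seeing the data, the 4 RPMI-8226 and RPMI-8226-R libraries alone and a sum with pseudogenes.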

Additional observations from a re-analysis of the deposited data

How the results depend on the processing

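Of 279 values of the members' log2 fold changes under alternatives, over 21 pairs of member and comparison, 274 kept their direction and 5 were reversed; the cause was not tested. MTF1 in RPMI-8226 against the libraries labelled NCI-BL2171 was -0.0478 with an effective-length offset, -0.31 on log2(TPM + 1) and -0.42 on log2(TPM + 0.1), against 0.55. MT1F in RPMI-8226-R against those libraries was 0.0012 on log2(TPM + 1) and, without replicate 1 or 2 of RPMI-8226-R, between -2.17 and 0.11, against -0.65. As summed TPM the log2 ratio of the metallothionein sum was -3.67 between RPMI-8226-R and RPMI-8226, -1.97 between RPMI-8226 and the libraries labelled NCI-BL2171 and -5.63 between RPMI-8226-R and them. With each library left out in turn these ratios ranged from -4.48 to -4.16, from -1.82 to -1.53 and from -6.16 to -5.83. The number of other metallothioneins called became 2 between RPMI-8226-R and RPMI-8226, and 1 between RPMI-8226-R and the libraries labelled NCI-BL2171, with no filter and on both TPM scales. Leaving out single libraries gave between 11600 and 13192 genes called between RPMI-8226-R and RPMI-8226, 14396 and 16281 between RPMI-8226 and the libraries labelled NCI-BL2171, and 14435 and 15683 between RPMI-8226-R and them.

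Replicate numbers do not pair the libraries: the labels give no shared origin, and deviations of same-numbered libraries correlated at 0.043, 0.044 and 0.028 across genes in the 3 comparisons. With the replicate number as a block, 13045, 15295 and 15426 genes were called in them. On the 4 RPMI-8226 and RPMI-8226-R libraries alone, 6254 genes were higher and 6622 lower of 18323 tested. Depth limits MT1E, MT1A and MT1M in both RPMI-8226 lines, and MT1F, MT1G and MT2A in RPMI-8226-R, to a few reads per library. The same holds for MT1F in the libraries labelled NCI-BL2171, where MT1A and MT1M had no read.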
